A study of Mus musculus with 8 samples.

Results

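Small nucleolar RNAs (snoRNAs) and the genes that carry them were followed in newly made RNA of mouse embryonic stem cells with mutant histone H3.3. Members were every gene of the authors' 4 deposited tables whose symbol starts with Snord, Snora or Snhg followed by a number, plus Gas5. The rule gave 74 of 16896 genes, made up of 38 box C/D snoRNAs (Snord), 19 box H/ACA snoRNAs (Snora) and 17 host genes (the Snhg genes and Gas5). The rule used names alone and no measured value. The mouse GENCODE annotation lists 138 Snord and Snora symbols, of which 57 were in the tables and 81 were not analysed here. An exon of another gene on the same strand overlapped 12.3% of the 57 and 71.6% of the 81, so the snoRNAs described are mainly those that lie clear of annotated exons.

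SnoRNAs are short stable RNAs of the nucleolus that guide chemical modification of ribosomal RNA. Box C/D RNAs pair with their target and direct ribose methylation by fibrillarin, and box H/ACA RNAs direct the change of uridine to pseudouridine by dyskerin. Most vertebrate snoRNAs are not transcribed on their own. They are cut from introns of a host gene, often one for a ribosomal protein or a translation factor. The Snhg genes and Gas5 are counted as hosts by name. The annotation types Snhg11 as protein coding and Snhg7os as antisense, and no annotated Snord or Snora lies on the same strand within the span of Snhg10, Snhg11, Snhg17, Snhg20 or Snhg7os. SnoRNAs annotated under other names were not looked for.

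The assay was TT-seq, in which a short pulse of 4-thiouridine (4sU) marks RNA as it is made and the marked RNA is drawn out and sequenced. ES-E14TG2a (E14) cells, an embryonic stem cell line from a male mouse, received 500 nM 4sU for 5 min in all 8 libraries. The question was how newly made RNA differs when histone H3.3, encoded by H3f3a and H3f3b, carries K122A, an alanine in place of a lysine. Wildtype cells gave 3 libraries, which the labels call biological replicates. Single-targeted lines had 2 mutant alleles of 4, in H3f3a for one library (H3f3a A/A H3f3b WT/WT) and in H3f3b for the other (H3f3a WT/WT H3f3b A/A). In the dual-targeted group there were 3 mutant alleles in every line, which were 2 clones of H3f3a A/A H3f3b WT/A and 1 line of H3f3a WT/A H3f3b A/A. No mutant line has a replicate of its own, so error within a mutant group is variation among lines, and an effect of the alleles and of a line's own history cannot be told apart. Culture medium with LIF, and a form with 2 further inhibitors, are both in the labels, which do not say which of them these cells had.

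The snoRNAs that differed between the dual-targeted lines and wildtype are printed first, with Snord65 and Snord92, which differed between the dual-targeted and single-targeted lines, and Snora73a, the near copy of Snora73b. Sequences are GENCODE transcripts on GRCm38, 5′ to 3′ in DNA letters. Capitals in box C/D RNAs mark the first TGATGA (a core of box C) where it starts within the first 33.3% of the RNA and the last CTGA (box D) where it starts within the last 33.3%. Capitals in box H/ACA RNAs mark the last ACA within 6 bases of the 3′ end.
Snord43: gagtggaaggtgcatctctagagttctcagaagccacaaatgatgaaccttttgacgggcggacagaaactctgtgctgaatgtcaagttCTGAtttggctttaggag
Snord42b: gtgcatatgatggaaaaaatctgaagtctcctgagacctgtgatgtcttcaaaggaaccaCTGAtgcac
Snord93: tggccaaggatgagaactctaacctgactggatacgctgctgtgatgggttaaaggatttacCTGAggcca
Snord71: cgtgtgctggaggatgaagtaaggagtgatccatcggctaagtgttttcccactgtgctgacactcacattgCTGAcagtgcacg
Snord65: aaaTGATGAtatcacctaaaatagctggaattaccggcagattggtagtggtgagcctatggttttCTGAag
Snord92: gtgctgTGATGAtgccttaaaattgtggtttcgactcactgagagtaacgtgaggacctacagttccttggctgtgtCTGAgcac
Snora41: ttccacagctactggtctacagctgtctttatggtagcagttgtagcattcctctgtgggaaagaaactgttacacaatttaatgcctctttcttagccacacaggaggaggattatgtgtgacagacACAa
Snora43: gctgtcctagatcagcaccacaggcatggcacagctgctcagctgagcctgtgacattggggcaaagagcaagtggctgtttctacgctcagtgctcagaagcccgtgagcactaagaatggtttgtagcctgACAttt
Snora73b: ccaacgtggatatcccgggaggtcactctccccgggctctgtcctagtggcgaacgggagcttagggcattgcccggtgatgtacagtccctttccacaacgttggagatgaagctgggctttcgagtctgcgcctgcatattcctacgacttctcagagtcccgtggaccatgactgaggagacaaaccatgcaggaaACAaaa
Snora73a: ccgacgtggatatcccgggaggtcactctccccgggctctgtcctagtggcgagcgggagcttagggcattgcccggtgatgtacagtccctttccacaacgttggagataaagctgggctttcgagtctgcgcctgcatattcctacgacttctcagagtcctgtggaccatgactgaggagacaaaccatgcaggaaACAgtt
Snora30: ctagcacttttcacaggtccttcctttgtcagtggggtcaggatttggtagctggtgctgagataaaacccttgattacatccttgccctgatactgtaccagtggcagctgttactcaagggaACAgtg

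Searched on the RNA strand alone, the box D letters CTGA were in that window in 37 of 38 box C/D members (97.4%) and in 97 of all 98 annotated Snord sequences, against 27.5% of the 40 annotated Snora sequences. TGATGA was there in 23 of 38 members (60.5%), in 72.4% of annotated Snord and in 0 of the 40 Snora sequences. The ACA stood within 6 bases of the end in 19 of 19 box H/ACA members, in 95% of annotated Snora and in 7 of 98 Snord sequences. These letters describe the transcripts and were not set against any value. Snora73a and Snora73b are each 205 bases long and share 198 of them with 7 mismatches (96.6% identity). Reads could be split between this pair in counting, so values of both are uncertain.

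The printed RNAs lie within genes of several kinds. Snord43 (chr15:80082847-80082954, minus strand) is in an intron of Rpl3, a protein of the large ribosomal subunit, and the annotation types it as a miRNA. Snord42b (chr11:78183056-78183124, minus strand) is in Rpl23a, another ribosomal protein gene, where some transcripts run through it as exon. Snord93 (chr5:23852210-23852280, plus strand) is in 2700038G22Rik, an uncharacterised gene, and Snord71 (chr8:109839295-109839379, plus strand) is in Ap1g1, a subunit of a vesicle adaptor complex. Snord65 (chr11:62604515-62604586, plus strand) is in 2410006H16Rik, and Snord92 (chr17:71631281-71631365, plus strand) is in Wdr43, a factor of ribosomal RNA processing. Snora41 (chr1:63179004-63179135, plus strand) is in Eef1b2, a subunit of a translation elongation factor, and Snora30 (chr7:127527874-127528003, plus strand) is in Srcap, a chromatin remodeller. Snora73b (chr4:132352322-132352526) and Snora73a (chr4:132352775-132352979), both minus strand, are in the spans of Snhg3 and Rcc1. Exon sequence of Gm17300 overlaps both on the opposite strand, and some Snhg3 transcripts run through Snora73a as exon. Snora43 (chr2:26637847-26637985, minus strand) lies in the span RefSeq gives Snhg7, a host not analysed here, as does Snora17 (chr2:26639190-26639321, minus strand). The annotation holds 2 entries named Snora43, of which the longer is placed and printed here. Deposited values are by symbol, so the value of Snora43 cannot be tied to this entry alone. Use of strand in counting was not given in the sources used here, which makes values of overlapping and antisense genes uncertain. A count over an intronic snoRNA can also hold reads from the unspliced host, and the deposited values do not separate the host's intron from the snoRNA.

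The values are the authors' mean normalized counts, log2 fold changes and DESeq2 p-values, and values of single libraries were not analysed here, so the depth of each library is unknown and whether libraries of different groups overlap could not be read. In the authors' deposited table of dual-targeted and wildtype libraries, the 6 embryonic stem cell markers looked for (among them Pou5f1 and Nanog) had mean counts from 1006 to 4211, and 2 of 6 fibroblast markers were in the table, at 25.2 and 276. Of these 2, Vim was higher in the dual-targeted lines, at 0.72 ± 0.28 (adjusted p = 0.0146 in the authors' deposited table). Among the 6 stem cell markers 2 were higher there (Pou5f1 and Nanog) and 0 lower, with log2 fold changes from -0.22 to 0.75. Single-targeted lines had 1 of the 6 higher than wildtype, and 1 was higher in dual-targeted than in single-targeted lines. The part of these markers in the results was not tested. In bulk RNA, more cells that make a transcript and more transcript per cell cannot be told apart. Group means of wildtype, single-targeted and dual-targeted libraries, of the clones and of the other dual-targeted line were rebuilt by subtraction from the 4 tables' means. They carry no error and could be checked for 3218 of the 3444 genes called in the dual-targeted comparison with wildtype, those in all 4 tables, where the direction matched the deposited fold change in 3218. Deposited fold changes are read here as shrunken toward 0, so they are smaller than the ratios of these means.

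Members took up 0.522% of the summed mean counts in the authors' deposited table of dual-targeted and wildtype libraries, and most of that was host genes. The highest mean counts among hosts were 11358 for Gas5, 9431 for Snhg1 and 8746 for Snhg4 in the authors' deposited table. Gas5 was first known as a transcript that accumulates in growth-arrested cells. Among box C/D RNAs the highest were Snord43 (1632), Snord83b (647) and Snord49a (413), and among box H/ACA RNAs Snora73b (621), Snora17 (615) and Snora57 (338), again as the authors' deposited table gives them. Set per kilobase of exon, the classes came closer together, with medians of 921 for 37 box C/D RNAs, 629 for 19 box H/ACA RNAs and 1003 for 15 hosts. On that scale Snord43 reached 15109, above Snord83b at 6885 and Snord49a at 5742, while the highest hosts were Snhg5 at 3689, Snhg1 at 3177 and Gas5 at 3021. Median exon length was 81 bases for box C/D RNAs, 137 for box H/ACA RNAs and 2402 for hosts. A count over a short intronic snoRNA can also hold host reads, so this scale does not rank true abundance between classes. Of the 73 members in that table, 47 had a mean count of 50 or more.

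Against wildtype, the dual-targeted lines had higher newly made RNA of 9 members (Snord43, Snord42b, Snord93, Snora41, Snora43, Snora73b, Snhg20, Snhg16 and Gas5) and lower RNA of 2 (Snord71 and Snora30), of 73 tested in the authors' deposited table (adjusted p under 0.05). In all genes tested there, 10.8% were higher and 10.1% lower, so the share of members called higher or lower (15.1%) was below the share of all genes (20.9%). The direction was one-sided among members. The median log2 fold change was 0.20 over the members against 0.01 over all genes, and 55 of 73 members lay above 0 against 50.7% of all genes. Hosts stood farthest out, with a median of 0.36, against 0.15 for box H/ACA and 0.08 for box C/D RNAs. The median log2 ratio of the rebuilt means, which are not shrunken, was 0.44 for 15 hosts, 0.41 for 19 box H/ACA RNAs and 0.10 for 37 box C/D RNAs. On that scale hosts and box H/ACA RNAs lay close together and box C/D RNAs below both. The plot of members by class shows this spread.

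**Figure D1:**
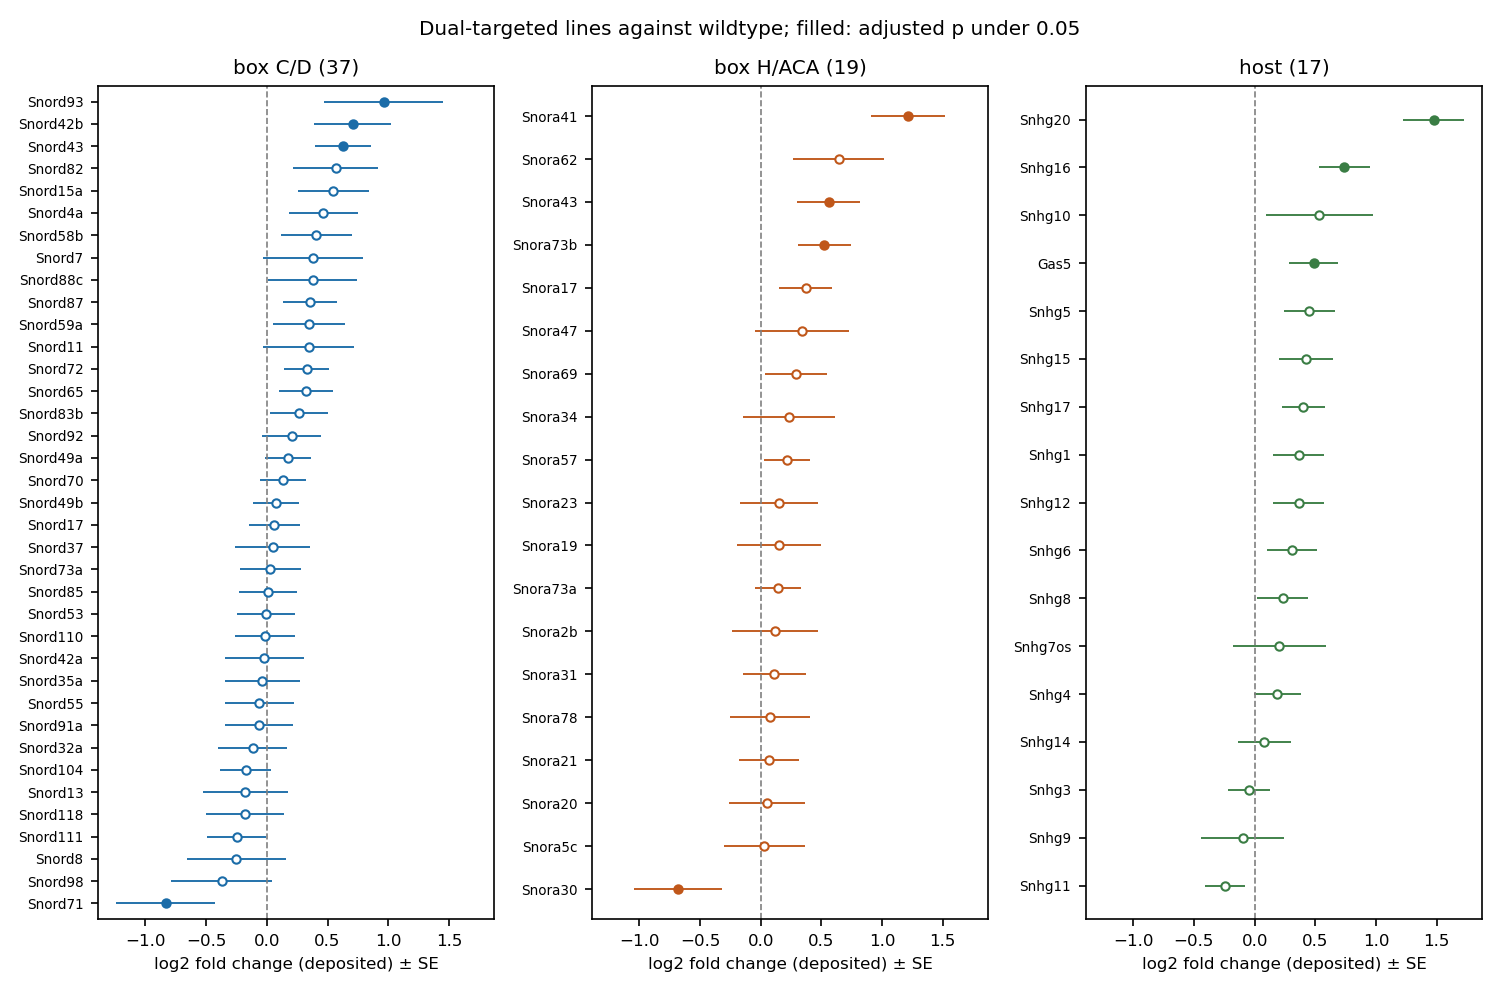
Deposited log2 fold change (horizontal axis, bars are the deposited standard error) of each member in dual-targeted lines against wildtype, in a panel per class, with filled points at an adjusted p under 0.05. Snhg20, Snora41 and Snord93 lie farthest to the right of their panels, and Snord71 and Snora30 are the only filled points left of 0.

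Among box C/D RNAs, 3 of 37 were higher and 1 lower, so 10.8% were called, against 20.9% of all genes. Snord43 had rebuilt mean counts of 1235 in wildtype, 1110 in single-targeted lines, 2195 in the clones and 1697 in the other dual-targeted line. Both kinds of dual-targeted line were thus above wildtype, and the authors' deposited table gave a log2 fold change of 0.63 ± 0.23 (SE, adjusted p = 0.012). Snord42b went from 53.1 in wildtype to 105 in the clones and 82.1 in the other line, with 0.71 ± 0.32 in the authors' deposited table (adjusted p = 0.0279). Snord93, at 26.7 in wildtype, 73.2 in the clones and 48.8 in the other line, had 0.96 ± 0.49 in the authors' deposited table (adjusted p = 0.0272), a wide error at a low count. The member that fell, Snord71, had 62.1 in wildtype, 32.1 in single-targeted lines, 33.9 in the clones and 19.6 in the other line. Its log2 fold change in the authors' deposited table was -0.83 ± 0.41 (adjusted p = 0.03). Snord71 lies on chromosome 8, where the median over 626 genes was -0.32 in the same comparison and, over 649 genes, -0.21 in single-targeted lines against wildtype, and the part of the chromosome in its value was not tested.

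Box H/ACA RNAs included 3 higher and 1 lower of 19, a share called (21.1%) close to that of all genes (20.9%). Snora41 had the largest fold change of any snoRNA member, with rebuilt means of 62.3 in wildtype, 90.7 in single-targeted lines, 163 in the clones and 151 in the other dual-targeted line. The authors' deposited table gave it 1.21 ± 0.31 (adjusted p = 1.7e-04). Snora43 stood at 254 in wildtype, 148 in single-targeted lines, 376 in the clones and 471 in the other line, with 0.56 ± 0.26 in the authors' deposited table (adjusted p = 0.0438). Snora73b, whose family is known for a part in cleaving the ribosomal RNA precursor rather than in modifying it, had 493, 403, 787 and 672 in the same order. Its deposited value was 0.52 ± 0.22 in the authors' deposited table (adjusted p = 0.0293), while the near copy Snora73a had 0.15 ± 0.19 (adjusted p = 0.587). Snora30 was lower, at 68.0 in wildtype, 61.9 in single-targeted lines, 32.4 in the clones and 44.5 in the other line, with -0.68 ± 0.36 in the authors' deposited table (adjusted p = 0.0492), just inside the threshold. Snora62 was just outside it at 0.64 ± 0.38 (adjusted p = 0.0685) in the authors' deposited table.

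Of 17 hosts, 3 were higher and 0 lower (17.6% called, against 20.9% of all genes). An unadjusted DESeq2 p under 0.05 was found for 9 hosts (52.9%) and for 32.7% of all genes. These shares are not matched for abundance, since the median mean count was 2346 for hosts and 144 for all genes. Snhg20 (chromosome 11, 117076008 to 117078955, plus strand) had the largest fold change of all members. Its rebuilt means were 315 in wildtype, 528 in single-targeted lines, 877 in the clones and 997 in the other dual-targeted line. The authors' deposited table gave it 1.47 ± 0.25 (adjusted p = 4.0e-08). Snhg16 (chromosome 11, 116671660 to 116675798) had 2355 in wildtype, 2289 in single-targeted lines, 4365 in the clones and 3639 in the other line. Its fold change was 0.74 ± 0.21 in the authors' deposited table (adjusted p = 0.0014). Gas5 (chromosome 1, 161034422 to 161038539, plus strand) had 9193, 9511, 14673 and 11226 in that order, with 0.49 ± 0.20 in the authors' deposited table (adjusted p = 0.0307). The other abundant hosts did not pass, with 0.36 ± 0.21 for Snhg1 (adjusted p = 0.137) and 0.19 ± 0.19 for Snhg4 (adjusted p = 0.464) in the authors' deposited table. Some Gas5 transcripts run as exon through Snord47, Snord78 and Snord80, the snoRNAs in its span that have Snord or Snora names. They also run through genes with other names, among them Gm22357 and Mir5117. Snhg20 overlaps Gm26083 and Mir6516 in the same way, so part of the counts of Gas5 and Snhg20 could belong to small RNAs.

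**Figure D2:**
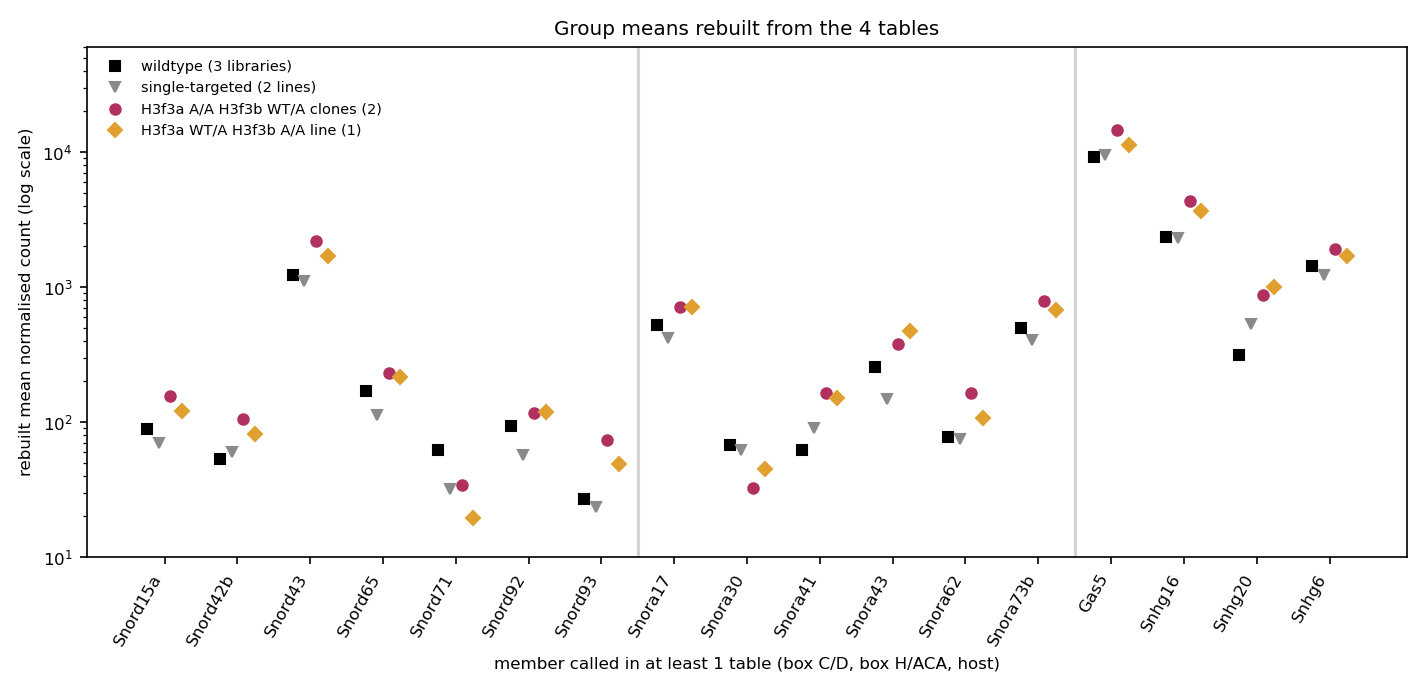
Rebuilt mean normalised count (vertical axis, log scale, no error available) of the 17 members called in at least 1 of the 4 tables, in wildtype, single-targeted lines, the other dual-targeted line and the 2 clones of H3f3a A/A H3f3b WT/A. Apart from Snord71 and Snora30, the clones and the other dual-targeted line both lie above wildtype, as for Gas5 at 14673 and 11226 against 9193.

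The members that did not pass in dual-targeted lines against wildtype were 33 of 37 box C/D RNAs, 15 of 19 box H/ACA RNAs and 14 of 17 hosts. In the authors' deposited table these box C/D RNAs ran from -0.37 ± 0.42 (Snord98) to 0.57 ± 0.35 (Snord82, adjusted p = 0.091) and these box H/ACA RNAs from 0.03 (Snora5c) to 0.64 (Snora62). The uncalled hosts ran from -0.25 ± 0.17 (Snhg11, adjusted p = 0.248) to 0.53 ± 0.44 (Snhg10, adjusted p = 0.142) in the authors' deposited table. Nearest to the threshold among abundant hosts were Snhg17, at 0.40 ± 0.18 (adjusted p = 0.057), and Snhg5, at 0.45 ± 0.21 (adjusted p = 0.0595), in the authors' deposited table. Snhg5 had rebuilt means of 5232 in wildtype, 5151 in single-targeted lines, 7733 in the clones and 7126 in the other dual-targeted line. Snhg14, a long host whose span holds 17 Snord116 copies that were not analysed here, lay near 0, at 0.08 ± 0.22 (adjusted p = 0.807) in the authors' deposited table. The tables do not hold every member, since Snord34 had values in the single-targeted comparison with wildtype alone, Snhg7os had none there and Snhg9 had none in dual-targeted against single-targeted lines.

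Calls were more frequent among the abundant members. Among the 17 members with a mean count of 500 or more, 5 were higher in the dual-targeted lines (29.4%), against 15.2% of all genes of that abundance. None of the 17 was lower, against 10.3% of all genes, so in either direction the shares were 29.4% and 25.6%. Among the 26 members below a mean count of 50, 1 was higher (3.85%), against 7.39% of all genes there. The median deposited standard error was 0.28 for box C/D and 0.31 for box H/ACA RNAs, against 0.21 for hosts.

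Set against wildtype by themselves, the 2 clones of H3f3a A/A H3f3b WT/A gave 9 members higher and 1 lower (Snora30) of 71 tested, per the authors' deposited table, beside 9.05% higher and 10.3% lower among all genes. These clones are also in the dual-targeted group, so the values repeat in part what is given above. Without the other dual-targeted line, 2 members lost their call, Snora43 (0.43 ± 0.28, adjusted p = 0.17) and Snord71 (-0.58 ± 0.41, adjusted p = 0.124 in the authors' deposited table). Snora62, which lies in Rpsa, a ribosomal protein gene, was called there alone, at 0.80 ± 0.42 (adjusted p = 0.0465) in the authors' deposited table. Its rebuilt mean was 77.7 in wildtype, 163 in the clones and 106 in the other line. Over 71 members with rebuilt means, 56 were above wildtype in the clones and 53 in the other line, and 49 were above it in both. The corresponding shares of all genes were 49.4% and 48.1%, and 38.4% of all genes were above wildtype in both, against 69.0% of members. Both ratios have the same wildtype mean, so these values are not independent.

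Single-targeted lines had 0 members higher and 0 lower than wildtype by the authors' DESeq2 test, of 66 with an adjusted p, where 1.49% of all genes were higher and 1.47% lower. At an unadjusted p under 0.05 there were 7 members (9.59%), against 12.4% of all genes. Only 1 of these was a host, Snhg20, at 0.56 ± 0.28 (adjusted p = 0.0776) in the authors' deposited table, which lies above wildtype. The other 6 lay below wildtype, with Snora31 at -0.58 ± 0.58 (adjusted p = 0.142) and Snora43 at -0.55 ± 0.34 (adjusted p = 0.105) the farthest in the authors' deposited table, and Snord111, Snord65, Snord71 and Snord92 between -0.41 and -0.20. The median over 73 members was -0.02, and 24 of 73 had a log2 fold change above 0, against 51.3% of all genes.

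**Figure D3:**
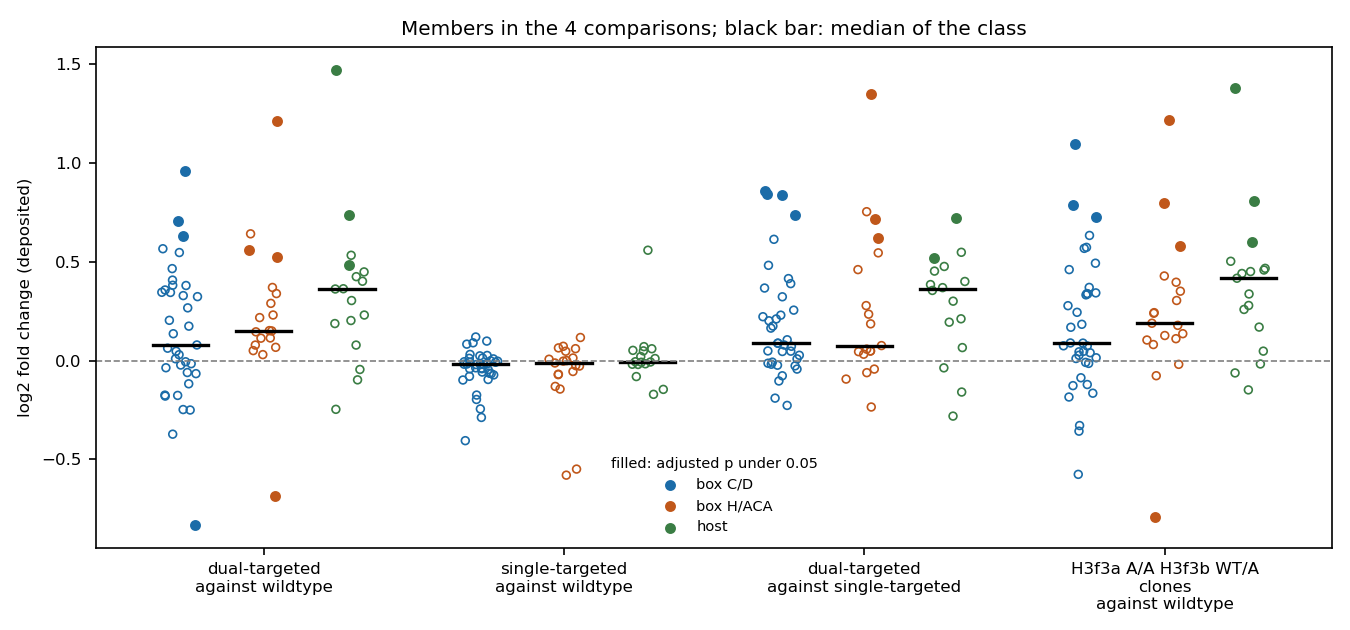
Deposited log2 fold change (vertical axis) of every member in each of the 4 comparisons, by class, with filled points at an adjusted p under 0.05 and black bars at the class median. Single-targeted lines have no filled point and medians near 0, while the host median is 0.36 in both comparisons of all dual-targeted lines. Comparisons share libraries, and shrinkage differs between them.

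The dual-targeted lines set directly against the single-targeted lines had 9 members higher and 0 lower of 55 with an adjusted p, while 4.37% of all genes were higher and 2.69% lower in the authors' deposited table. The members called were 16.4% of those tested, against 7.06% of all genes. Among members with a mean count of 500 or more, 5 of 17 were higher (29.4%), against 8.78% of all genes of that abundance. Box C/D RNAs made up 4 of the 9 calls, box H/ACA RNAs 3 and hosts 2. The median over 72 members was 0.18, where that of all genes lay within 0.01 of 0, with 0.09 for box C/D, 0.08 for box H/ACA and 0.36 for hosts. The median over members was 0.34 for the 46 with a mean count of 50 or more. It was 0.10 for the 50 left without members found to overlap an exon of another gene. That step left out most hosts, the class with the highest median. The part of this in the fall was not tested. In rebuilt means the class medians were closer, at 0.39 for box C/D, 0.44 for box H/ACA and 0.51 for hosts.

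Snora43 differed most, at 1.35 ± 0.32 (adjusted p = 3.3e-04) in the authors' deposited table, with rebuilt means of 148 in single-targeted and 408 in dual-targeted lines. Its neighbour in the Snhg7 span, Snora17, had 416 and 711, and 0.62 ± 0.29 (adjusted p = 0.0421) in the authors' deposited table. The only other box H/ACA RNA called was Snora73b, at 0.72 ± 0.32 (adjusted p = 0.0316 per the authors' deposited table). Among box C/D RNAs the authors' deposited table gave 0.86 ± 0.31 for Snord65 (adjusted p = 0.0142), 0.85 ± 0.38 for Snord15a (0.0287), 0.84 ± 0.37 for Snord92 (0.028) and 0.74 ± 0.28 for Snord43 (0.0179). Snord65, Snord92 and Snord15a were called in this comparison alone. Their rebuilt means in wildtype, single-targeted and dual-targeted lines were 169, 112 and 225 for Snord65, 94.1, 56.7 and 117 for Snord92, and 88.4, 69.8 and 145 for Snord15a. Wildtype lay between the mutant groups for each of these 3. The hosts called were Snhg16, at 0.72 ± 0.27 (adjusted p = 0.0167), and Snhg6, at 0.52 ± 0.18 (adjusted p = 0.018), in the authors' deposited table. Gas5, at 0.38 ± 0.22 (adjusted p = 0.116), and Snhg20, at 0.55 ± 0.36 (adjusted p = 0.093), did not pass in the authors' deposited table of this comparison.

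Most snoRNA members sit inside a measured gene on the same strand, which let each be set beside its host. There were 51 such snoRNAs in 40 hosts. In dual-targeted lines against wildtype, 13 of the 40 hosts were higher and 1 (Ap1g1) lower, beside 10.8% higher and 10.1% lower among all genes. Of the 37 hosts with a mean count of 500 or more, 11 were higher, against 15.2% of all genes of that abundance. The median deposited log2 fold change was 0.29 over the 40 hosts and 0.15 over the 50 snoRNAs, and the snoRNA lay below its host in 33 pairs and above in 17. In the rebuilt means, which are not shrunken, the snoRNA lay below its host in 28 of 49 pairs and above in 21, and for box H/ACA RNAs in 7 below and 8 above. The median gap between snoRNA and host over all pairs was smaller in rebuilt means. For box C/D RNAs it hardly moved, from -0.107 in deposited values to -0.104 in rebuilt means, and for box H/ACA RNAs the pairs were split about evenly. Of the 15 snoRNAs whose host was higher, 3 were called higher themselves, namely Snora41 in Eef1b2, Snord42b in Rpl23a and Snord93 in 2700038G22Rik. Both values of a pair come from the same libraries, so these differences have no test. In dual-targeted against single-targeted lines the snoRNA lay below its host in 36 of 49 pairs with a median difference of -0.20. In rebuilt means that count was 29 of 49, with a median difference of -0.10. In the same comparison 2 of the 17 snoRNAs with a higher host were higher (Snord65 and Snord15a), beside 4.37% of all genes. Counts of a host and of a short snoRNA also differ in depth, whose part in the gap was not tested.

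**Figure D4:**
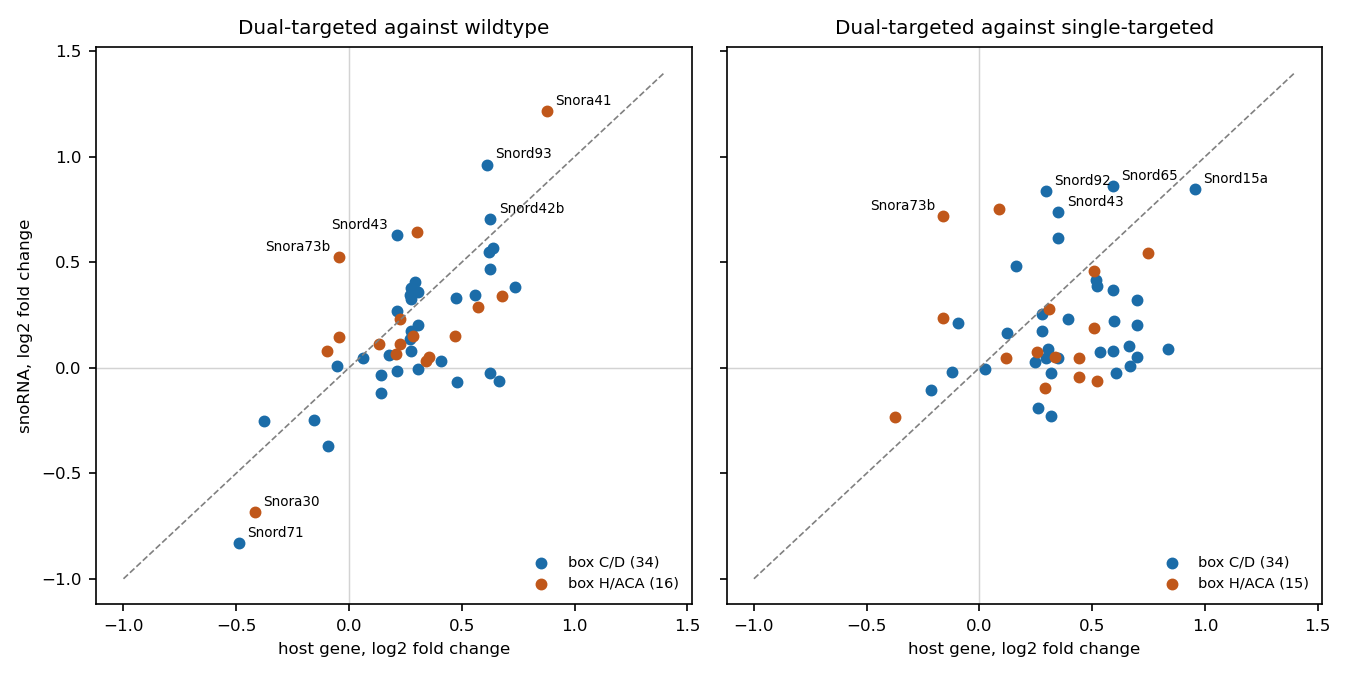
Deposited log2 fold change of each snoRNA (vertical axis) against that of the gene whose span holds it (horizontal axis), for dual-targeted lines against wildtype (50 pairs) and against single-targeted lines (49 pairs), with called snoRNAs named and a dashed line where both are equal. More points lie below the line than above, 33 of 50 and 36 of 49, and Snora73b, set against Snhg3, stands well above it in both panels.

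Hosts that encode ribosomal proteins were higher in 5 of 11 cases in dual-targeted lines against wildtype, with a median of 0.41, and their 15 snoRNAs had a median of 0.29 with 2 higher. Translation and nucleolar factors were higher in 4 of 9, with a median of 0.30, and 1 of their 11 snoRNAs was higher. Hosts of other kinds were higher in 4 and lower in 1 of 17. These counts stand beside 10.8% higher among all genes and 15.2% among those whose mean count reached 500. The pairs that moved together included Snora41 with Eef1b2, at 0.88 ± 0.22 for the host (adjusted p = 1.8e-04), and Snord93 with 2700038G22Rik, at 0.61 ± 0.22 (adjusted p = 0.0113) in the authors' deposited table. Both genes of the pair Snord71 and Ap1g1 were lower, with Ap1g1 at -0.49 ± 0.16 (adjusted p = 0.0089) in the authors' deposited table. This pair lies on chromosome 8, where the median over 626 genes was -0.32 in that comparison, and the part of the chromosome was not tested. Srcap, which holds Snora30, had -0.42 ± 0.19 and did not pass (adjusted p = 0.059 in the authors' deposited table).

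The RNAs of one host were set side by side for hosts with a called snoRNA, and no difference between them was tested. In Rpl23a, at 0.63 ± 0.22 (adjusted p = 0.0096) in dual-targeted lines against wildtype, Snord42b was higher (0.71), Snord4a had 0.47 ± 0.29 (adjusted p = 0.12) and Snord42a had -0.02 ± 0.33 (adjusted p = 0.946) in the authors' deposited table. Snord42a was the least abundant of the 3, at a mean count of 19.8 in that table. In Rpl3, which did not pass (0.21 ± 0.20, adjusted p = 0.426), Snord43 was higher while Snord83b had 0.27 ± 0.24 (adjusted p = 0.352) in the authors' deposited table. Snhg3 had -0.05 ± 0.17 (adjusted p = 0.874, from the authors' deposited table) beside the higher Snora73b. A value of Rcc1, whose span also holds Snora73b, is not given here. In 2410006H16Rik, higher against single-targeted lines (0.59 ± 0.23, adjusted p = 0.0276), Snord65 was called while Snord49a had 0.37 ± 0.20 (adjusted p = 0.114) and Snord49b had 0.08 ± 0.19 (adjusted p = 0.754) in the authors' deposited table. Within Wdr43 the same comparison gave 0.84 for Snord92 and 0.05 ± 0.22 for Snord53 (adjusted p = 0.844), with the host at 0.29 ± 0.17 (adjusted p = 0.163), in the authors' deposited table.

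The proteins that bind and modify through these RNAs were read from lists. Of the box H/ACA core, 3 of 4 genes were higher in dual-targeted lines against wildtype, where 10.8% of all genes were. They were Nhp2 at 1.07 ± 0.21 (adjusted p = 2.7e-06), Nop10 at 0.98 ± 0.23 (adjusted p = 6.5e-05) and Gar1 at 0.63 ± 0.20 (adjusted p = 0.0045) in the authors' deposited table. Dkc1, the pseudouridine synthase itself, had 0.10 ± 0.16 (adjusted p = 0.669, also from the authors' deposited table). Of the box C/D core (Fbl, Nop56, Nop58 and Snu13), 0 of 4 passed, with a median of 0.34 and the methyltransferase gene Fbl nearest at 0.48 ± 0.22 (adjusted p = 0.0578) in the authors' deposited table. Against single-targeted lines Fbl was higher, at 0.82 ± 0.28 (adjusted p = 0.0104), and so were Nhp2 and Gar1, at 1.35 ± 0.27 (adjusted p = 4.4e-05) and 0.64 ± 0.21 (adjusted p = 0.0096) in the authors' deposited table.

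Factors that assemble these particles were higher in 3 of 11 cases against wildtype, beside 10.8% of all genes, with a list median of 0.12. Znhit6, an early box C/D assembly factor, had 0.91 ± 0.23 (adjusted p = 2.8e-04), and Ruvbl2 and Ruvbl1, the paired ATPases of the assembly chaperone, had 0.84 ± 0.23 (adjusted p = 5.8e-04) and 0.71 ± 0.20 (adjusted p = 0.0011) in the authors' deposited table. Of 10 genes of the Cajal body, the nuclear body where related guide RNAs (scaRNAs) work, 3 were higher, beside the same 10.8%. These were Smn1 at 0.74 ± 0.19 (adjusted p = 2.8e-04), Scarna2 at 0.67 ± 0.25 (adjusted p = 0.0135) and Wrap53 at 0.52 ± 0.22 (adjusted p = 0.0362) in the authors' deposited table. Wrap53 brings scaRNAs to that body. Other small nuclear, nucleolar and RNA polymerase III transcripts had 0 of 14 called by DESeq2 and a median of -0.02, and the nuclear exosome and end-trimming genes had 0 of 5 called and a median of 0.13. Against single-targeted lines, Rnu3b3, a copy of the U3 snoRNA gene, was lower at -0.96 ± 0.35 (adjusted p = 0.0144) in the authors' deposited table. Single-targeted lines against wildtype had 0 genes of these lists called by DESeq2.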

How the data were processed

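TT-seq libraries of 4sU-labelled RNA from 8 cultures were made into tables by the submitters, whose processing notes list STAR, SAMtools, featureCounts, DESeq2 and deepTools without versions and name mm10 and GRCm38.p6 as builds. The 4 tables analysed are the authors' own comparisons, each normalized separately. Per the file headers they hold the deposited mean signal (mean normalized count over the libraries compared), the deposited log2 fold change with its standard error, and the authors' p-value and adjusted p-value. Every test is the authors' DESeq2 test as deposited, with a call at an adjusted p under 0.05 over all genes of the table. An empty adjusted p was kept empty. No library columns were used, so depth per library is unknown and no counting interval can be given.

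Members, lists and alternatives were chosen with earlier results of these data known. Named genes were every member called in any table, Gas5 and the 3 members of each class with the largest mean count, the hosts of called snoRNAs with their other snoRNA members, and up to 4 called genes of each list by adjusted p. Snora31, Snord111, Snord98, Snord82, Snora5c, Snhg5, Snhg10, Snhg11, Snhg14, Snhg17, Vim and the uncalled genes of the lists were named after their values were seen.

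Group means were rebuilt by subtraction from the 4 tables' means and the known numbers of libraries. Scales of 0.983, 1.06 and 0.957 between tables were set so that the median of 11099 genes in each group equals wildtype. Fold changes are read as shrunken, since 100% of called genes had one smaller than its p implies. Positions, hosts, exon lengths and sequences came from GENCODE mouse release 21 (Snhg16 and Snhg4 from RefSeq, GRCm38.p6). A host is a measured gene whose span holds the snoRNA on the same strand. Where several did, the shortest was taken, with genes of numbered Gm names placed last. The scripts were tested on simulated data and ran in Python 3.11.15 with biopython 1.88, pandas 2.3.3, statsmodels 0.14.6, numpy 2.4.6, matplotlib 3.10.9 and scipy 1.17.1.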

Additional observations from a re-analysis of the deposited data

Results flagged for a closer look

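The direct comparison of the dual-targeted with the single-targeted lines tests whether the mutant groups differ from each other, and 9 members did in the authors' deposited table at an adjusted p under 0.05. Among box H/ACA RNAs the log2 fold change in the authors' deposited table was 1.35 for Snora43, 0.72 for Snora73b and 0.62 for Snora17. Among box C/D RNAs it was 0.86 for Snord65, 0.85 for Snord15a, 0.84 for Snord92 and 0.74 for Snord43 in the authors' deposited table. The hosts were Snhg16 at 0.72 and Snhg6 at 0.52 in the authors' deposited table. All 9 were higher in the dual-targeted lines, where 4.37% of all genes were higher and 2.69% lower. The groups differ in the number of mutant alleles and in the lines themselves, which cannot be told apart.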

How the results depend on the processing

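At an adjusted p of 0.01 in place of 0.05, the members higher fell to 3 in dual-targeted lines against wildtype, 1 against single-targeted lines and 4 in the clones, and the members lower to 0 in dual-targeted lines and 0 in the clones. At 0.1 the members higher were 15, 15 and 14 in the same order, and 1 in single-targeted lines against wildtype. Shares of all genes at 0.01 and 0.1 are not given here, so these counts cannot be set beside them. Leaving out members found to overlap an exon of another gene left 50 members, of which 5 were higher in dual-targeted lines and 5 in the clones. Gas5, Snhg20, Snord42b and Snora73b are the dual-targeted calls left out in this way, and most hosts were left out. Snhg16, which stayed among the higher members, and Snhg4 were kept without a check, since their exons were not in the annotation used. In dual-targeted lines against wildtype 1 member was lower with a mean count of 50 or more, 1 without chromosomes 8, 14 and Y, and 1 without dual-targeted replicate 3 (H3f3a WT/A H3f3b A/A), where 9 members were higher and the median was 0.19. Of 30 calls of members over the tables, 22 were lost at 0.01 and 1 under Benjamini-Hochberg adjustment over every p. Subtracting the table median or the trend on gene length changes fold changes and not the deposited p, so it can reverse a call but not end one, and none was reversed under the alternatives run. With a mean count of 50 or more, the median over members went from 0.18 to 0.34 in dual-targeted against single-targeted lines and from 0.19 to 0.34 in the clones. Without members found to overlap an exon of another gene, and so without most hosts, it was 0.10 in the first of these. With no scales between tables, the rebuilt median of single-targeted over wildtype went from -0.06 to -0.24 and that of dual-targeted over wildtype from 0.35 to 0.17, so the size of both rests on the scaling. In an alternative chosen after seeing the data, ratios of rebuilt means in place of deposited fold changes moved the median difference between snoRNA and host in dual-targeted lines from -0.11 to -0.08 against wildtype and from -0.20 to -0.10 against single-targeted lines. No paired analysis was possible because the tables hold no values per library and the labels give replicate numbers to the wildtype libraries alone (the numbers of the mutant lines name lines or clones and pair nothing). For the same reason leaving out other libraries was not possible. In dual-targeted lines against wildtype, 26 of 73 members had a mean count below 50, where few calls were made.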
